A study of Mus musculus with 12 samples.

Results

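This comparison describes what 8 Gy of X-rays did to gene expression in MC38 cells that were also given nintedanib. Its members are 6 of the 12 libraries of the series: 3 from cultures given nintedanib at 3 µM together with 8 Gy (nintedanib plus 8 Gy) and 3 from cultures given nintedanib at 3 µM alone. They were chosen by their titles, and the 12354 genes that reached an FPKM of 1 in 3 or more of them were tested, of 54532 in the deposited table. FPKM are fragments scaled to gene model length and sequencing depth. The other 6 libraries, 3 from cultures given 8 Gy alone and 3 from untreated control cultures, are used for the same radiation effect without the drug. Nintedanib and radiation are each labelled with 24 hours, and per the design text the experiment was run 3 times independently. The labels do not say how long before or after irradiation the drug was added.

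MC38 is a mouse colorectal cancer cell line that is widely used as a transplantable tumour. Nintedanib blocks the receptor tyrosine kinases of the VEGF, FGF and PDGF families. Ionising radiation breaks DNA, and cells answer with checkpoint signalling that can hold them in G1 or before mitosis. The genes for mitotic kinases, cyclins, kinesins and kinetochore proteins are transcribed late in the cell cycle, so their RNA is high in populations with many cells in G2 and mitosis. In a bulk library, fewer cells of a type and less RNA per cell cannot be told apart.

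The libraries held 17356775 to 17460781 fragments with nintedanib plus 8 Gy and 17246149 to 17830477 with nintedanib. Spread within the groups was wider here than in the other 6 libraries: the median SD of log2(FPKM + 1) was 0.138 over these libraries and 0.103 over those given 8 Gy alone or nothing. The nintedanib library with replicate number 3 stood apart, with 2.12% of its fragments from mitochondrial genes against 1.42 to 1.64% in the other 5, and with the short RNA gene Gm23935 at 609.9 FPKM against 14280 to 27020 FPKM. The first library with nintedanib plus 8 Gy had 3.38% of its fragments in ribosomal protein genes, against 4.14 and 4.24% in the other 2 of its group and 3.37 to 3.64% with nintedanib. The cells had mesenchymal markers, with Vim at 549 FPKM with nintedanib plus 8 Gy and 533 FPKM with nintedanib. Of 16 epithelial markers, Epcam, Krt18, Cdx2 and Esrp1 were at 0 in all 6 libraries, and only Cdh1 and Krt19 passed the filter. Of 17 leukocyte markers, 5 were at 0, among them Cd3e and Tyrobp, and the list summed to 1.86 to 3.54 FPKM with nintedanib plus 8 Gy and 1.40 to 2.09 FPKM with nintedanib.

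Radiation given with nintedanib raised genes of mitosis, a few secreted factors and some interferon and MHC class I genes. It lowered the linker histone H1f0, the G1 cyclins Ccne1 and Ccnd2, and 5 of 25 targets of YAP and TAZ. By limma on log2(FPKM + 1), fitted on all 12 libraries with a Benjamini-Hochberg adjusted p below 0.05, 739 of 12354 genes (5.98%) changed. Of all genes tested, 3.39% were higher with nintedanib plus 8 Gy and 2.59% were lower, 419 and 320 genes. Most changes were small, since the median size among called genes was 0.44 on the log2 scale and 29 genes changed at least 2-fold, 21 higher and 8 lower. That number was 50 without the first library of nintedanib. The 3 libraries of each group did not overlap for 2776 genes (22.5%), 1281 higher and 1495 lower. These counts rest on the spread of all 12 libraries. A limma fit of the 6 libraries alone called 83 genes, of which 79 were among the 739. Among the 867 genes of all lists it called 24, against 123 in the fit of 12: 17 mitotic genes, Spp1, Acta2 and Loxl2, Ccl9, Ifi27l2a, Acsbg1 and H1f0. In the other lists described below that fit called 0 genes, while over all lists 164 were higher and 71 lower at an unadjusted p below 0.05 in it. Of all 12354 genes tested, 1994 reached that unadjusted p in the fit of the 6 libraries and 2784 in the fit of 12. Counts at an unadjusted p in the lists below stand against these. The count was 285 and 456 without the second and the third library of nintedanib plus 8 Gy, and 383 and 467 without the second and the third library of nintedanib. Of the 15 genes with the largest rises and the 15 with the largest falls, 13 and 8 were also called in the fit of the 6 libraries. Both sets were taken only from genes whose groups did not overlap, so their separate groups, described below, follow from that choice.

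**Figure D1:**
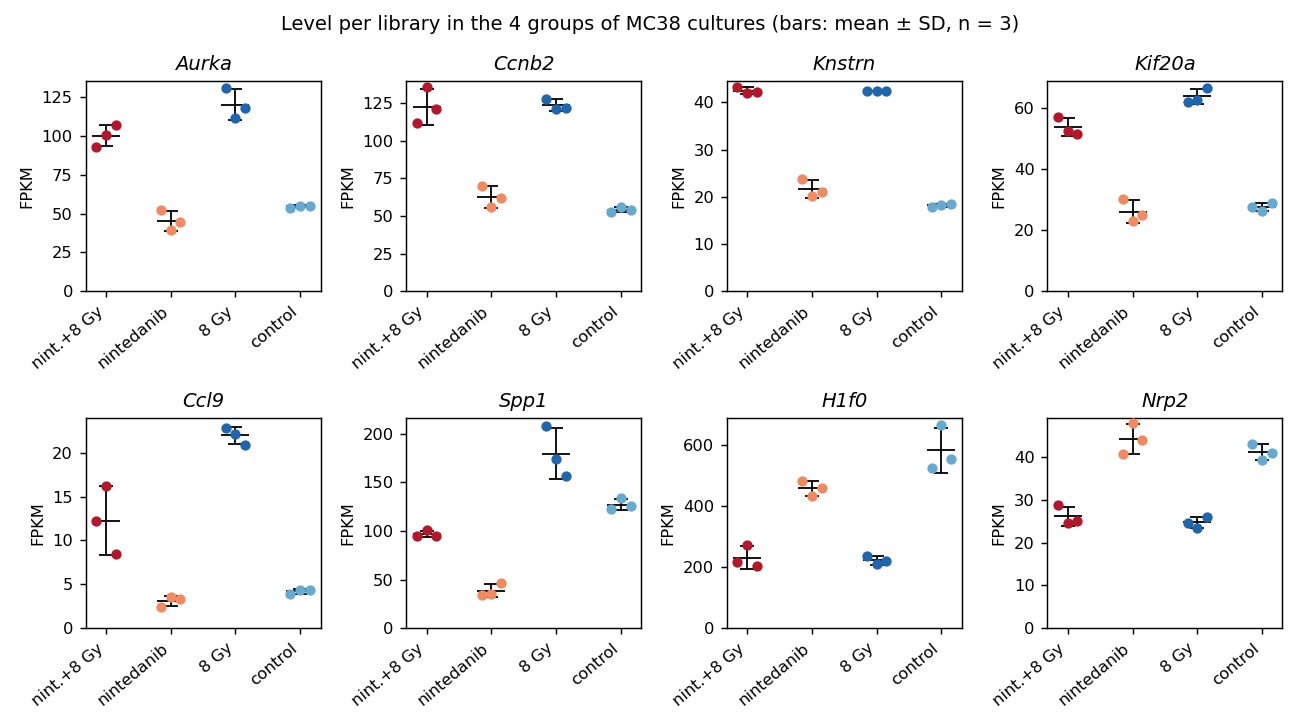
FPKM (vertical axes, from 0) of 8 genes in each of 12 MC38 libraries, with points for libraries and bars for the mean ± SD of 3. In every panel the 3 libraries of nintedanib plus 8 Gy lie apart from the 3 of nintedanib, above them in the first 6 genes and below them for H1f0 and Nrp2. The 8 genes were taken from those whose groups did not overlap, so this separation follows from that choice.

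Genes for entry into mitosis rose together. Of 30 tested genes for G2/M cyclins, kinases and their regulators, 17 were higher with nintedanib plus 8 Gy and 0 were lower. Their median log2 fold change was 0.44, against -0.01 over all genes tested. Aurka, the kinase that matures centrosomes and builds the spindle (ENSMUSG00000027496, chromosome 2, 172356190 to 172370535), had 92.9, 100.3 and 107 FPKM with nintedanib plus 8 Gy, against 52.2, 39.3 and 44.6 FPKM with nintedanib. The lowest irradiated library stood well above the highest unirradiated one. Its log2 fold change was 1.13 (SE 0.10, limma adjusted p = 0.000399, and 0.0353 in the fit of the 6 libraries). Ccnb2, a B-type cyclin that activates Cdk1 (chromosome 9, 70407692 to 70421547), had 112, 136 and 121 FPKM with nintedanib plus 8 Gy, against 70.2, 56.1 and 62.0 FPKM with nintedanib. Ccnb1, the other main partner of Cdk1, had 78.7, 75.6 and 80.0 FPKM with nintedanib plus 8 Gy, against 43.6, 34.6 and 45.8 FPKM with nintedanib. Neither cyclin had overlapping groups, and their log2 fold changes were 0.96 and 0.91. The centrosome kinase Nek2 rose by 0.85, the Cdk1-activating phosphatase Cdc25c by 0.67 and Tpx2, which activates Aurka on the spindle, by 0.72. Nek2 had 43.0, 43.0 and 43.4 FPKM with nintedanib plus 8 Gy, against 27.7, 22.1 and 21.2 FPKM with nintedanib, and its irradiated libraries were nearly equal.

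Spindle genes held the largest share of called members of any list. Of 35 mitotic kinesins and spindle proteins, 24 rose and 0 fell, with a median log2 fold change of 0.44. Knstrn, which helps to anchor spindle microtubules at kinetochores (chromosome 2, 118814003 to 118853957), had 43.3, 42.1 and 42.2 FPKM with nintedanib plus 8 Gy, against 23.8, 20.2 and 21.0 FPKM with nintedanib. It shared the lowest adjusted p of all genes with Acsbg1, with a log2 fold change of 0.94 (SE 0.06, limma adjusted p = 7.43e-05, and 0.0296 in the fit of the 6 libraries). Kif20a, a kinesin of the central spindle needed for cytokinesis, had 56.9, 52.5 and 51.3 FPKM with nintedanib plus 8 Gy, against 30.2, 22.9 and 25.0 FPKM with nintedanib, and its log2 fold change was 1.02. The groups of both genes lay far apart. The microtubule-depolymerising kinesin Kif2c rose by 0.72, the abscission protein Cep55 by 0.81, and the microtubule-binding proteins Nusap1 and Ckap2l by 0.73 and 0.68. Ckap2l missed the threshold in the fit of the 6 libraries (limma adjusted p = 0.0537).

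Of 33 genes for kinetochores, the spindle checkpoint and anaphase, 16 rose and 0 fell, with a median log2 fold change of 0.39. Cenpa, the histone H3 variant that marks centromeres, had 28.0, 30.7 and 32.9 FPKM with nintedanib plus 8 Gy, against 20.6, 15.7 and 16.6 FPKM with nintedanib. Cdc20, which activates the anaphase-promoting complex, had 191, 218 and 231 FPKM with nintedanib plus 8 Gy, against 139, 108 and 105 FPKM with nintedanib. The groups did not overlap for either gene. The ubiquitin-conjugating enzyme Ube2c rose by 0.89, the phosphatase adaptor Cdca2 by 0.71, the centromeric cohesin protector Sgo2a by 0.66 and the checkpoint protein Bub3 by 0.57. The count was 9 without the second and 10 without the third library of nintedanib plus 8 Gy, and 8 without the second library of nintedanib. Among 12 condensin and chromosome scaffold genes, the condensin subunit Ncapd2 rose by 0.56 and no other member was called. The proliferation marker Mki67 had 81.9, 65.4 and 65.8 FPKM with nintedanib plus 8 Gy, against 74.3, 71.2 and 79.5 FPKM with nintedanib, and its groups overlapped (limma adjusted p = 0.728).

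Over these 4 lists, 58 of 110 genes were higher and 0 were lower. The fit of the 6 libraries called 17 of them, and leaving out any 1 library gave 39 to 60. At an unadjusted p below 0.05, 80 were higher and 1 was lower. Their summed level was 4144.5, 4170.2 and 4307.8 FPKM with nintedanib plus 8 Gy, against 3250.9, 2666.0 and 3036.8 FPKM with nintedanib. Every irradiated library was above every library of nintedanib alone. The same sum was 5150.5, 4873.7 and 4884.1 FPKM with 8 Gy alone and 3245.1, 3247.9 and 3316.5 FPKM in controls.

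**Figure D2:**
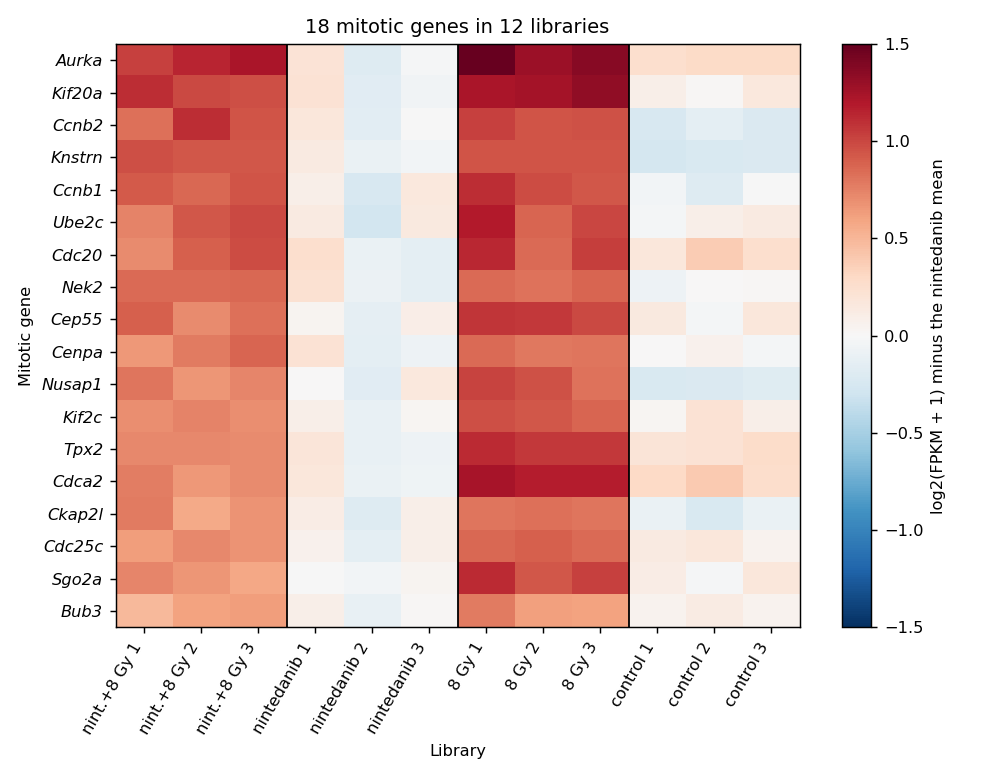
Level of 18 mitotic genes (rows) in 12 libraries (columns) as log2(FPKM + 1) minus the gene's mean over the nintedanib libraries, blue below 0 and red above it. The genes are the 6 of smallest adjusted p in nintedanib plus 8 Gy against nintedanib from each of 3 mitotic lists. The 3 columns of nintedanib plus 8 Gy and the 3 of 8 Gy alone are red in all 18 rows, while the nintedanib columns are pale. The contrast between the columns of nintedanib plus 8 Gy and of nintedanib follows from that choice.

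Promoters of late cell cycle genes are known to carry a cell cycle genes homology region (CHR), bound by the DREAM and MuvB complexes, often with CCAAT boxes bound by NF-Y. The letters TTTGAA or TTCGAA (CHR) and CCAAT were searched on both strands in RefSeq promoter windows, from 250 bases before to 50 after the annotated start (GRCm38.p6). TTCGAA reads the same on both strands, and a CHR and a CCAAT match can share no more than a base at their ends. RefSeq windows were matched for 90 of the 110 mitotic genes, and 66 of them (73.3%) held a CHR, against 16.2% of 8755 tested genes with a window and 21.7% of all 27025 mouse genes with a RefSeq window. CCAAT was in 72.2% of mitotic genes and 43.6% of tested genes. Both were in 60% of mitotic genes and 7% of tested genes. The CHR was in 39 of 52 mitotic genes that were called (75%) and in 27 of 38 that were not (71.1%). The following windows belong to 4 spindle genes with a CHR, taken in order of adjusted p, and they show the motif in genes that rose together. Kif20a, which has a smaller adjusted p than these 4, was left out of the choice whether or not its window holds a CHR. Capitals mark CHR and CCAAT matches on either strand, each sequence is written along the gene's own strand, and Cep55 has a second window that is not shown. The windows of Ckap2l and Kif18b are placed on the first base of the gene model in the deposited table and that of Cep55 41 bases before it, but the RefSeq start of Kif2c lies 3867 bases inside its gene model.

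Kif2c (chr4:117178723-117179022, minus strand): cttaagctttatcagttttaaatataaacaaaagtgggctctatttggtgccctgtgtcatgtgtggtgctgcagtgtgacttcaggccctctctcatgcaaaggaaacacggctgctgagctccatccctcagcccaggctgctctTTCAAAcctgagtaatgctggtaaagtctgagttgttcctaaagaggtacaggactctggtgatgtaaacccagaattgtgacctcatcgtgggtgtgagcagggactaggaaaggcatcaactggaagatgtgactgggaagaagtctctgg

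Cep55 (chr19:38054734-38055033, plus strand): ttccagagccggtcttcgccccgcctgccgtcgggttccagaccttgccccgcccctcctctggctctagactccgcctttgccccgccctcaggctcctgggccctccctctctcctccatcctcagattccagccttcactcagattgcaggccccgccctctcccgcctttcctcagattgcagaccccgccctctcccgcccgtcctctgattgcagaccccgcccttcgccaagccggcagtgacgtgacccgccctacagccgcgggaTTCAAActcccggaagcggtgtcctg

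Ckap2l (chr2:129297163-129297462, minus strand): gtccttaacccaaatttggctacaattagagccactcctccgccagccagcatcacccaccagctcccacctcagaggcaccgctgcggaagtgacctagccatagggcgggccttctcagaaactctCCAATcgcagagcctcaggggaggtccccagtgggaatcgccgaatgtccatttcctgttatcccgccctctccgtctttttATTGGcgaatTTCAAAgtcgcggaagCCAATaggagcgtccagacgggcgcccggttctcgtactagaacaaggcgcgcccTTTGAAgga

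Kif18b (chr11:102925075-102925374, minus strand): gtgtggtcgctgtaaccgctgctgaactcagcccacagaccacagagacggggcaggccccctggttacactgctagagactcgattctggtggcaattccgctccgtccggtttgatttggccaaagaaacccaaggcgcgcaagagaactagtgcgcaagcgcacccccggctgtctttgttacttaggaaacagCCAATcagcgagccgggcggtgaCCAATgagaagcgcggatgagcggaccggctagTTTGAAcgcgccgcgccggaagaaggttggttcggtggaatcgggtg

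These are 300-base windows. In Kif18b, a kinesin of microtubule plus ends that rose by 0.65, the CHR begins 4 bases after the start, with CCAAT boxes 53 and 30 bases before it. In Ckap2l a CHR lies 30 bases before the start between CCAAT boxes at 40 and 14 bases, and a further CHR lies after it. The windows of Kif2c and Cep55 hold a CHR and no CCAAT. A match describes the letters in the window and does not show that a factor binds there.

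Outside mitosis, the largest rises were in a chemokine, an interferon-inducible gene and a matrix protein. Ccl9, a chemokine of myeloid cells (chromosome 11, 83572919 to 83578636), had 12.2, 16.2 and 8.41 FPKM with nintedanib plus 8 Gy, against 2.47, 3.57 and 3.36 FPKM with nintedanib. Its irradiated libraries were spread widely, and the lowest of them was above every library of nintedanib alone (log2 fold change 1.65, SE 0.18, limma adjusted p = 0.000828, and 0.0423 in the fit of the 6 libraries). Ifi27l2a, induced by interferon, had 35.8, 50.8 and 43.0 FPKM with nintedanib plus 8 Gy, against 13.0, 15.9 and 18.2 FPKM with nintedanib, and rose by 1.40. Spp1, the secreted phosphoprotein osteopontin (chromosome 5, 104435118 to 104441050), had 94.8, 100.5 and 95.2 FPKM with nintedanib plus 8 Gy, against 34.4, 35.2 and 46.1 FPKM with nintedanib. Its groups were tight and separate (log2 fold change 1.32, SE 0.12, limma adjusted p = 0.000423). The acyl-CoA synthetase Acsbg1 had 3.41, 4.03 and 3.50 FPKM with nintedanib plus 8 Gy, against 1.24, 1.23 and 1.0 FPKM with nintedanib.

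The remaining genes with the largest rises were Krt13 (a keratin, 1.06), A4galt (the enzyme that makes the glycolipid Gb3, 0.95), Rbp2 (a retinol-binding protein, 0.92), Acta2 (smooth muscle actin, 0.91), Fbln1 (a matrix glycoprotein, 0.91), Sod3 (extracellular superoxide dismutase, 0.91) and Aldh3a1 (an aldehyde dehydrogenase, 0.89). Acta2 had 16.6, 15.9 and 20.1 FPKM with nintedanib plus 8 Gy, against 10.3, 7.78 and 8.5 FPKM with nintedanib. Sod3 had 11.6, 13.1 and 10.1 FPKM with nintedanib plus 8 Gy, against 5.75, 5.67 and 5.66 FPKM with nintedanib. The calls of Rbp2 and Aldh3a1 were lost without the second library of nintedanib plus 8 Gy, and that of Aldh3a1 also without the first library of nintedanib. Among 35 genes of TGF-beta signalling and extracellular matrix, Spp1, Acta2 and the collagen cross-linking enzyme Loxl2 (0.57) rose, and the ligand Tgfb2 (-0.37) and the SMAD co-repressor Skil (-0.36) fell. In this list 8.57% rose and 5.71% fell, against 3.39% and 2.59% of all genes tested. The falls of Tgfb2 and Skil were both lost without the second or the third library of nintedanib plus 8 Gy, or the second of nintedanib, and that of Skil also without the third of nintedanib.

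Among genes that fell, H1f0, the linker histone of slowly cycling and differentiated cells (chromosome 15, 79028450 to 79030504), had 217, 273 and 202 FPKM with nintedanib plus 8 Gy, against 481, 432 and 459.6 FPKM with nintedanib. The highest irradiated library was far below the lowest of the others, and H1f0 fell by 0.996 on the log2 scale (SE 0.12, limma adjusted p = 0.00144, and 0.0442 in the fit of the 6 libraries). Nrp2, a co-receptor for VEGF and semaphorins (chromosome 1, 62703285 to 62818695), had 28.8, 24.7 and 25.2 FPKM with nintedanib plus 8 Gy, against 40.9, 48.1 and 44.0 FPKM with nintedanib. Gas1, a membrane protein of Hedgehog signalling named for growth arrest, had 11.6, 14.3 and 12.3 FPKM with nintedanib plus 8 Gy, against 23.1, 26.9 and 22.7 FPKM with nintedanib. Both groups were separate for each gene, and the falls were 0.74 for Nrp2 and 0.88 for Gas1 (log2 fold changes -0.74 and -0.88).

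The other largest falls were in Dbp (a circadian output factor, -0.81), Slc39a10 (a zinc importer, -0.71), Sbf2 (a myotubularin-related protein, -0.70), Prrg4 (-0.70), Man2a1 (a Golgi mannosidase, -0.67), Tmem150a (-0.65), Acss2 (the acetyl-CoA synthetase of the cytosol and nucleus, -0.64) and Rab27b (a GTPase of vesicle release, -0.63). The calls of Dbp, Prrg4 and Tmem150a were lost without the second library of either group. They were also lost without other libraries: for Dbp the third of nintedanib plus 8 Gy or the first of nintedanib, for Prrg4 the third of either group, and for Tmem150a the first of nintedanib plus 8 Gy or the third of nintedanib. The largest fitted fall, that of the small nucleolar RNA gene Snord65, rests on 0, 1 and 1 fragments with nintedanib plus 8 Gy, against 6, 6 and 8 with nintedanib, in a gene of 72 bases. It passed the filter only through the libraries of nintedanib alone.

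Among the D- and E-type cyclins of G1, Ccnd2 and Ccne1 fell. Ccnd1 (-0.26), Ccnd3 (-0.07) and Ccne2 (-0.50) did not pass (limma adjusted p = 0.0912, 0.756 and 0.0799). Ccnd2, a D-type cyclin, had 9.40, 9.07 and 8.84 FPKM with nintedanib plus 8 Gy, against 15.1, 15.7 and 13.1 FPKM with nintedanib (log2 fold change -0.63, limma adjusted p = 0.00111). Ccne1, the cyclin of the G1/S transition, had 1.88, 2.65 and 3.55 FPKM with nintedanib plus 8 Gy, against 6.24, 4.47 and 4.74 FPKM with nintedanib. Its log2 fold change was -0.75, and the call was lost without the second library of nintedanib plus 8 Gy or the first of nintedanib, and in the fit of the 6 libraries. Of 55 DNA replication and S phase genes, 5 rose (9.09%) and 3 fell (5.45%), against 3.39% and 2.59% of all genes tested. The replication helicase protein Mcm8 (0.54), Mcm10 (0.47), the origin protein Orc1 (0.47), and 2 genes named after their values were seen, E2f2 (0.45) and Gins3 (0.43), were higher. The uracil glycosylase Ung (-0.97), Ccne1 and the origin-firing kinase Cdc7 (-0.44) were lower. Ung was low, at 0.600, 0.881 and 0.961 FPKM with nintedanib plus 8 Gy, against 3.33, 2.30 and 2.10 FPKM with nintedanib. It passed the filter only through the libraries of nintedanib alone. The number of replication genes that rose depended on single libraries: it was 15 without the first nintedanib library, 1 without the second or the third library of either group, and 2 or 3 without any 1 library of 8 Gy alone or control. The number that fell was 1 without the second library of nintedanib plus 8 Gy or the first of nintedanib, and 5 without the third of nintedanib plus 8 Gy. Of 16 tested histone genes in the list, H1f0 and the replacement histone gene H3f3b (-0.39) fell and 0 rose in limma, while Hist1h2bg, a histone H2B gene outside the list that was named after its values were seen, rose by 0.48. The call of H3f3b was lost without the first or the third library of either group.

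Most genes activated by p53 after DNA damage moved little at this time. Of 38 tested, 4 rose (10.5%, against 3.39% of all genes tested) and 0 fell, with a median log2 fold change of 0.00. Without any 1 of the 12 libraries 1 to 3 rose. Cdkn1a, the p21 inhibitor of cyclin-dependent kinases (chromosome 17, 29090976 to 29100727), had 23.5, 30.1 and 30.6 FPKM with nintedanib plus 8 Gy, against 23, 16.7 and 18.6 FPKM with nintedanib. The lowest irradiated library was close to the highest of the others (log2 fold change 0.51, SE 0.12, limma adjusted p = 0.0341), and the call was lost without the second or the third library of either group, without any library of 8 Gy alone and without the third control. Ckap2, which is also a spindle protein, rose by 0.61, the polo-like kinase Plk2 by 0.26 and the stress-induced sestrin Sesn2 by 0.50. The calls of Plk2 and Sesn2 were each lost without 11 of the 12 libraries in turn. The p53 antagonist Mdm2 was at 8.44 FPKM with nintedanib plus 8 Gy and 9.40 FPKM with nintedanib, the pro-apoptotic Bax at 36.3 and 36.9 FPKM, and Trp53 itself at 75.4 and 77.1 FPKM, in the same order. None of these 3 passed the test (limma adjusted p = 0.23, 0.93 and 0.82). Among 30 apoptosis genes only Birc5, the mitotic and anti-apoptotic protein survivin, was called (0.39), and the call was lost without the second library of either group or the third of nintedanib plus 8 Gy. The share of this list that rose, 3.33%, was near the 3.39% of all genes tested.

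Of 36 genes for homologous recombination and the Fanconi pathway, 3 rose (8.33%) and 2 fell (5.56%), against 3.39% and 2.59% of all genes tested. Among the called genes, the Fanconi protein Fancg (0.44) and the nuclease subunit Eme1 (0.54) rose, and the nuclease Dna2 (-0.48) and the break sensor Nbn (-0.36) fell. Without the first nintedanib library 6 rose and 0 fell, and 2 rose without the second library of either group or the third of nintedanib plus 8 Gy. The number that fell was 0 or 1 without 11 of the 12 libraries in turn, with the call of Dna2 lost without 8 and that of Nbn without 9. The call of Eme1 was lost without the second or the third library of either group, and that of Fancg without the second of nintedanib plus 8 Gy. Of 31 end joining and checkpoint signalling genes, only the damage adaptor Mdc1 was called (0.49), and that call was lost without 9 of the 12 libraries in turn. The share of this list that rose, 3.23%, was near the 3.39% of all genes tested.

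Some immune genes rose. Of 23 tested genes for MHC class I and antigen processing, 5 rose and 0 fell, with a median log2 fold change of 0.30. H2-K1, a classical class I heavy chain, had 243, 292 and 249 FPKM with nintedanib plus 8 Gy, against 185, 190 and 205 FPKM with nintedanib. H2-D1, the other classical heavy chain tested, had 369, 459.98 and 413 FPKM with nintedanib plus 8 Gy, against 309.8, 299.8 and 281 FPKM with nintedanib. Neither gene had overlapping groups (log2 fold changes 0.43 and 0.47, limma adjusted p = 0.0214 and 0.0237, and 0.127 and 0.119 in the fit of the 6 libraries). The call of H2-K1 was lost without the second library of nintedanib plus 8 Gy or the first or the second of nintedanib, and that of H2-D1 without the second or the third library of either group. The class I genes H2-Q4 (0.55) and H2-T22 (0.41) and the immunoproteasome subunit Psmb8 (0.67) rose as well. Class I heavy chain genes are close in sequence, and how fragments were shared among them is uncertain. Without the second library of nintedanib plus 8 Gy 1 member rose, and without the second or the third of nintedanib 3 rose. The limma fit of the 6 libraries called 0 of the 23, with 12 higher and 0 lower at an unadjusted p below 0.05.

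Of 33 interferon-stimulated genes tested, Ifi27l2a, the transcription factor Irf1 (0.39) and the RNA-activated synthetase Oas1a (0.28) rose and 0 fell. The median log2 fold change of the list was 0.11. At an unadjusted p below 0.05 in limma, 5 members were higher and 2 were lower. Over all 12354 genes tested, 2784 reached that p in either direction. Irf1 had 11.4, 11.6 and 11.3 FPKM with nintedanib plus 8 Gy, against 8.94, 8.70 and 7.86 FPKM with nintedanib. The call of Oas1a was lost without any 1 library of nintedanib plus 8 Gy, the second or the third of nintedanib, or the third control. Among 22 chemokine, cytokine and NF-kB genes, Ccl9, the T cell chemokine Cxcl10 (0.71) and the NF-kB subunits Nfkb2 (0.42) and Relb (0.38) rose, and the macrophage factor Csf1 (-0.31) fell. Cxcl10 was low, at 1.61, 1.62 and 1.71 FPKM with nintedanib plus 8 Gy, against 0.523, 0.625 and 0.704 FPKM with nintedanib. It passed the filter only through the libraries of nintedanib plus 8 Gy. The call of Csf1 was lost without 7 of the 12 libraries in turn and that of Relb without 8, and without the second library of nintedanib plus 8 Gy only Ccl9 and Cxcl10 rose. Of 13 checkpoint and co-stimulatory ligands, Icosl rose (0.36) and Pvr fell (-0.28), and the call of Pvr was lost without the second library of nintedanib plus 8 Gy or the third of nintedanib. The 14 genes of cytosolic nucleic acid sensing had 0 calls by limma and by voom, with 4 higher and 0 lower at an unadjusted p below 0.05.

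Of 19 senescence and secretory genes, 2 rose and 2 fell. Cdkn1a and the IGF-binding protein Igfbp7 (0.52) were higher, and the metalloprotease Mmp14 (-0.33) was among those lower. Igfbp7 had 54.9, 67.2 and 69.9 FPKM with nintedanib plus 8 Gy, against 46.9, 44.5 and 41.5 FPKM with nintedanib. Without the second library of nintedanib plus 8 Gy 0 rose and 0 fell, and 0 rose without the third of that group or the second or the third of nintedanib. Of 10 Notch and Wnt targets Myc fell and no other was called, and of 11 BMP and ID genes 0 were called by limma and by voom, with 1 lower at an unadjusted p below 0.05.

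Targets of YAP and TAZ, the co-activators that respond to cell shape and stiffness, fell in 5 of 25 cases and rose in 1. Amotl2, a regulator of YAP that is also its target, had 34.5, 34.1 and 37.9 FPKM with nintedanib plus 8 Gy, against 54.7, 47.4 and 52.8 FPKM with nintedanib. Its groups were separate (log2 fold change -0.53, limma adjusted p = 0.00367, and 0.0651 in the fit of the 6 libraries). Ctgf, a secreted matricellular protein, had 3.15, 3.23 and 5.20 FPKM with nintedanib plus 8 Gy, against 8.35, 6.68 and 7.55 FPKM with nintedanib, a log2 fold change of -0.83. The muscle ankyrin repeat protein Ankrd1 (-0.45), Crim1 (-0.31) and Rbms3 (-0.43) fell, and the kinase Nuak2 rose (0.49). The call of Rbms3 was lost without 11 of the 12 libraries in turn. Without the second library of nintedanib plus 8 Gy only 1 target fell, and without the first library of nintedanib 3 fell. The limma fit of the 6 libraries called 0 of the 25, with 1 higher and 9 lower at an unadjusted p below 0.05.

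Of 26 ERK feedback and immediate early genes, 4 fell and 1 rose. The ERK phosphatase Dusp1 had 82.7, 89.3 and 100.1 FPKM with nintedanib plus 8 Gy, against 130, 127 and 129 FPKM with nintedanib, with no overlap (log2 fold change -0.50, limma adjusted p = 0.00405, and 0.0820 in the fit of the 6 libraries). The AP-1 subunit Fosl2 fell by 0.48, the growth regulator Myc by 0.36 and the microRNA cluster host Mir17hg by 0.49, while the AP-1 subunit Junb rose by 0.75. Without the first or the third library of nintedanib plus 8 Gy, the first of nintedanib or the third control, 2 fell. The call of Mir17hg was lost without 10 of the 12 libraries in turn and after rescaling by the median ratio or to a common sum, and that of Myc without 5. The rise of Junb was lost without the second library of nintedanib plus 8 Gy. The limma fit of the 6 libraries called 0 of the 26, with 2 higher and 7 lower at an unadjusted p below 0.05.

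Most metabolic and stress lists had few calls. In the list of fatty acid synthesis and lipid droplets, 3.45% rose and 13.8% fell, against 3.39% and 2.59% of all genes tested. At an unadjusted p below 0.05 in limma, 5 of that list were higher and 12 lower. Of 29 genes for fatty acid synthesis and lipid droplets, Acsbg1 rose, and Acss2, the droplet protein Plin4 (-0.50), the elongase Elovl1 (-0.40) and Acaca, the acetyl-CoA carboxylase (-0.44), fell. Without the second library of nintedanib plus 8 Gy 1 fell, and without the second or the third of nintedanib 2 fell. Of 27 cholesterol synthesis genes 0 were called by limma and 1 by voom, with 1 lower at an unadjusted p below 0.05, and the median log2 fold change was -0.15. Of 42 genes of the ATF4 stress response, the amino acid transporter Slc38a2 fell (-0.40) and Sesn2 rose. Of 42 lysosome and autophagy genes, the protease Ctsa fell (-0.33), a call lost without the second library of either group. In each of these 2 lists 2.38% fell, near the 2.59% of all genes tested. In the ATF4 list 2.38% rose, against 3.39% of all genes tested. The NRF2 target Nqo1 (0.37) and the chaperone Hsp90b1 (0.35) were the only calls among 34 and 27 genes of their lists. The shares that rose, 2.94% and 3.70%, were near the 3.39% of all genes tested. The call of Nqo1 was lost without any 1 library of nintedanib plus 8 Gy or the second of nintedanib, and that of Hsp90b1 without 10 of the 12 libraries in turn. By limma 0 of 37 glycolysis and hypoxia genes, 0 of 40 cytosolic ribosomal proteins and 0 of 12 mitochondrially encoded genes were called. At an unadjusted p below 0.05 there were 7, 6 and 0, where all genes tested had 2784 of 12354. By voom 0, 2 and 0 were called. The ribosomal proteins had a median log2 fold change of 0.16, and of 0.26 without the first library of nintedanib plus 8 Gy, whose ribosomal protein share was the lowest of its group.

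**Figure D3:**
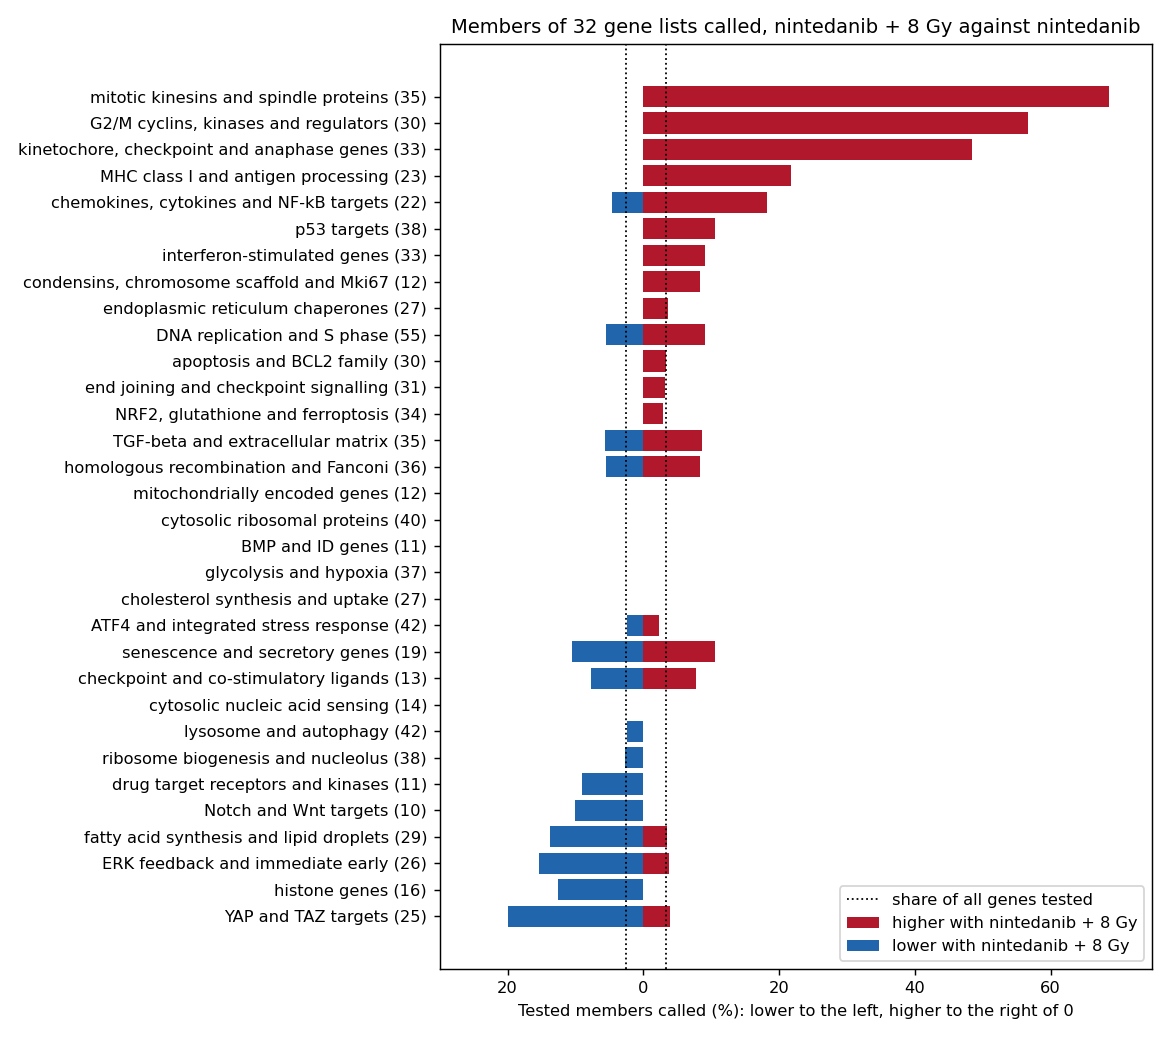
Percent of tested members (count in brackets) of 32 gene lists that passed an adjusted p below 0.05 in nintedanib plus 8 Gy against nintedanib, red to the right for higher and blue to the left for lower. Dotted lines mark 3.39% and 2.59% of all genes tested. The 3 lists with the longest red bars are mitotic, at 68.6, 56.7 and 48.5%, and YAP and TAZ targets have the longest blue bar, at 20%.

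Fgfr1, Pdgfra and Pdgfrb, receptors that nintedanib blocks, did not pass the test. Of 23 receptor and kinase genes, 11 were expressed enough to be tested. Their median log2 fold change was -0.16, with 1 higher and 4 lower at an unadjusted p below 0.05 in limma. Fgfr1 was at 36.0 FPKM with nintedanib plus 8 Gy and 32.3 FPKM with nintedanib, Pdgfra at 4.73 and 5.40 FPKM, and Pdgfrb at 17.4 and 21.0 FPKM, in the same order (limma adjusted p = 0.20, 0.37 and 0.075). The receptor Erbb2 fell, with 10.9, 10.7 and 10.3 FPKM with nintedanib plus 8 Gy, against 13.8, 13.1 and 12.1 FPKM with nintedanib (log2 fold change -0.26, limma adjusted p = 0.0366), and the call was lost without 8 of the 12 libraries in turn. The epithelial cadherin Cdh1 had 8.73, 7.76 and 8.29 FPKM with nintedanib plus 8 Gy, against 5.86, 5.30 and 4.82 FPKM with nintedanib, and rose by 0.55. The other epithelial markers stayed at or near 0 except Krt19, at 3.58 and 2.43 FPKM in the same order. Of 14 mesenchymal markers 0 were called by limma and by voom, with 1 higher and 1 lower at an unadjusted p below 0.05.

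More genes were called for the same dose without the drug. With 8 Gy alone against control, 2285 of the same 12354 genes (18.5%) were called, 8.15% of all genes tested higher and 10.3% lower. The count was 1139 without the second library of 8 Gy alone, and 1350 and 1280 without the second and the third control. These 6 libraries share none with the 6 above. Both contrasts come from the same fit, however, and use the same spread for each gene, so their calls are not independent. Of the 739 genes called with the drug, 505 (68.3%) were called in the same direction without it, which is 22.1% of the 2285. They comprised 304 higher and 201 lower genes. A further 231 were called with the drug and not without it, and 3 were called in opposite directions. Over all genes tested the log2 fold changes of both contrasts had a Pearson r of 0.42 across genes, which are not independent replicates. The share of called genes that were higher depended on scaling without the drug, at 44.1% as deposited, 69.2% after rescaling to a common sum, 64.2% with protein-coding genes rescaled and 59.0% with voom. With the drug it was 56.7% as deposited, 56.5% after rescaling to a common sum, 49.1% with protein-coding genes rescaled and 56.6% with voom.

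Mitotic genes rose in both settings. The 4 lists held 58 higher genes with the drug and 81 without it, and 53 were in both. Aurka had a log2 fold change of 1.13 with the drug and 1.12 without it, and Nek2 0.85 and 0.86. Ccnb2 had 0.96 and 1.17, and Nusap1 0.73 and 1.14, in the same order. Aurka stood at 130.5, 111 and 118 FPKM with 8 Gy alone and at 53.9, 55.0 and 55.0 FPKM in controls. H1f0 had -0.996 with the drug and -1.38 without it, and Nrp2 -0.74 and -0.71. Spp1 had 1.32 and 0.49, and Acta2 0.91 and 0.24, in that order. Acta2 was not called without the drug, and the difference of its effects was 0.68 (limma adjusted p = 0.247).

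Several lists had fewer calls with the drug than without it, as did all genes tested (5.98% with it and 18.5% without it). Of 38 ribosome biogenesis genes, 1 fell with the drug, the RNA polymerase I subunit Polr1b (-0.39), and 25 fell without it, with median log2 fold changes of -0.11 and -0.43. The call of Polr1b with the drug was lost without 9 of the 12 libraries in turn. ATF4 genes had 1 fall with the drug and 14 without it, and ERK genes 4 and 12. Interferon-stimulated genes had 3 rises with the drug and 13 without it, and MHC class I genes 5 and 13. The unirradiated groups of both settings also differed in the level of these lists. Ribosome biogenesis genes summed to a mean of 1039 FPKM with nintedanib and 2152 FPKM in controls. In the same order, the sums were 1670 and 4089 FPKM for ATF4 genes and 796 and 1137 FPKM for ERK genes. They were 278 and 185 FPKM for interferon-stimulated genes and 2455 and 1788 FPKM for MHC class I genes. Myc had 26.7, 32.4 and 30.2 FPKM with nintedanib plus 8 Gy, against 41.2, 37.9 and 36.1 FPKM with nintedanib. It had 74.0, 68.9 and 79.6 FPKM with 8 Gy alone, against 169.99, 176 and 182 FPKM in controls. Its log2 fold change was -0.36 with the drug and -1.24 without it.

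A difference between these effects has its own test. In the limma contrast of the effect with the drug minus the effect without it, 0 genes passed the adjusted threshold, with 1642 of 12354 at an unadjusted p below 0.05. The lowest adjusted p was 0.0707, shared by Myc, the mitochondrial helicase Twnk and the microRNA gene Mir709, of which Myc had a difference of 0.88. For Aurka the difference was 0.01 (adjusted p = 0.973 by limma), for Spp1 0.83 (0.141) and for H1f0 0.39 (0.367). Myc passed with no filter (limma adjusted p = 0.0473), with protein-coding genes rescaled (0.0425), with a common sum (0.0327), with voom (0.0469) and without the first library of nintedanib plus 8 Gy (0.0263). Twnk passed in each of these but the first, and 4 genes in all passed without that library. In every list the number of members that passed this test in the fit of all 12 libraries was 0, so the unequal counts with and without the drug were not shown to differ gene by gene.

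**Figure D4:**
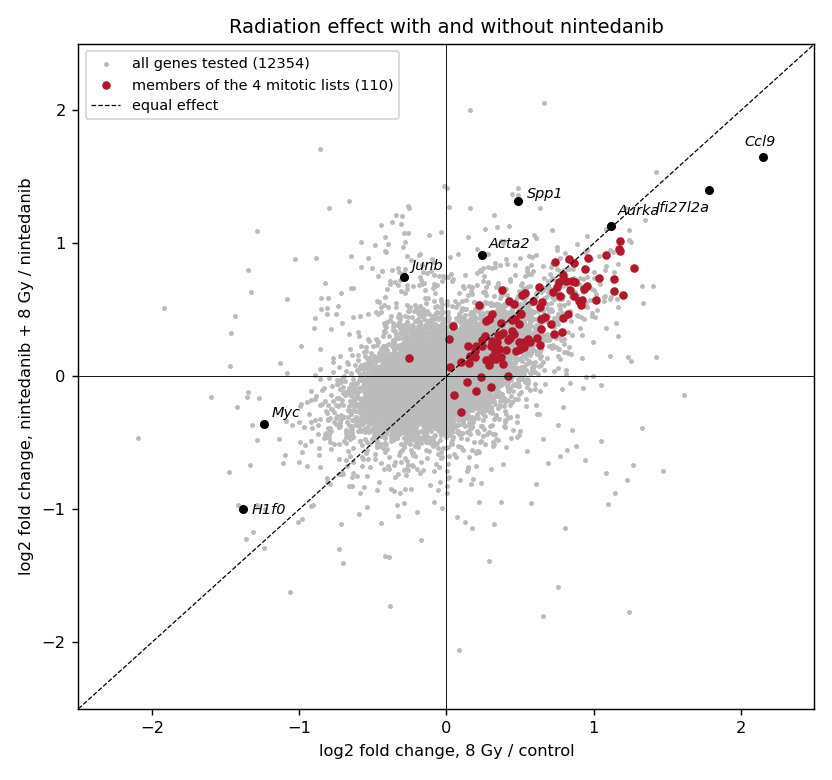
Log2 fold change of 8 Gy with nintedanib (vertical axis, nintedanib plus 8 Gy over nintedanib) and without it (horizontal axis, 8 Gy alone over control) for 12354 genes in grey, with 110 mitotic genes in red and 8 named genes in black. Most red points lie above 0 on both axes, Aurka falls on the dashed line of equal effect, and Myc lies far to the left of that line.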

How the data were processed

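The authors deposited FPKM values per gene (fragments scaled to gene length and depth, column sums unequal), per the file headers. Per the submitters' processing notes, the genome was GRCm38 (mm10). An aligner and a counter were not given in the sources used here. Each library's values were whole multiples of a step (100% within a tolerance of 0.01), which gave its fragments and depth. No molecular identifiers are stated, so this depth covers counting error only.

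Tests used limma 3.58.1 in R 4.3.3 on log2(FPKM + 1), with an intensity trend, 12 libraries in a fit with a mean per group (8 residual degrees of freedom), two-sided, and Benjamini-Hochberg over 12354 genes. This scale understates changes of low genes. Members, 36 gene lists and settings were chosen with earlier results of these data known. Named genes were the 15 largest rises and 15 largest falls past the threshold (mean of at least 5 FPKM, no overlap, predicted symbols passed over), and up to 6 members a list by adjusted p, with levels for p53, marker and drug target lists. Some genes that the rule names are not reported here. Replicates were not 1 library deposited again. The fit was tested on simulated data with the same spread for a gene in every group. That test cannot show how the fit behaves where groups differ in spread, as they do here. Alternatives were other pseudocounts, filters, scalings, voom (limma) on recovered fragments, a replicate block, the 6 libraries alone and each library left out.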

Additional observations from a re-analysis of the deposited data

Results flagged for a closer look

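In 4 named genes every library with 8 Gy lay above every library without it when nintedanib was given, and below when it was not. Junb had a log2 fold change of 0.75 with nintedanib and -0.29 without it. Sesn2 had 0.50 and -0.22, Icosl 0.36 and -0.18, and Plk2 0.26 and -0.18, in the same order. The difference of the effects did not pass the adjusted threshold of limma for Junb (1.03, adjusted p = 0.149), Sesn2 (0.72, 0.207), Icosl (0.54, 0.1) or Plk2 (0.45, 0.162). Such opposite, non-overlapping groups occurred in 82 of the 12354 genes tested.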

How the results depend on the processing

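The count of 739 was 485 with the replicate block (465 of them among the 739), 83 with the 6 libraries alone (79), and 285 to 676 with a library left out (271 to 631). Same-numbered libraries did not deviate together (correlations -0.337 to 0.239, against -0.292 to 0.32 for other pairs), and the main fit has no block. The labels do not say whether a number marks a shared run. These correlations cannot settle that, since libraries run together need not deviate together. The 2-fold count of 29 was 76 and 50 at pseudocounts of 0.1 and 0.5, 12 with an FPKM of at least 5, 12 with protein-coding genes only, 82 with voom, 19 with the 6 libraries alone and 22 to 50 with a library left out (50 without the first of nintedanib). Of 110 mitotic genes, 58 rose, against 17 with the 6 libraries alone and 39 to 60 with a library left out. Over all lists the count of 123 was 24 with the 6 libraries alone and 66 to 127 with a library left out. The count for 8 Gy alone, 2285, was 2817 with its 6 libraries alone and 1139 to 2563 with a library left out. The difference of the effects, with 0 calls, had 12 with no filter, 6 with protein-coding genes only, 3 with a common sum, 2 with voom and 0 to 4 with a library left out, and a common sum moved its median over all genes to -0.10, against 0.01. Of 101 named genes 0 changed direction in any setting, an outcome largely fixed by naming only genes past the threshold in this comparison. With the 6 libraries alone, 34 of them kept their call. The causes were not tested. Small RNA genes such as Snord65 rest on few fragments.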

Other observations

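The genes called in opposite directions with and without nintedanib were 3, named here after their values were seen. Hist1h2bg, a histone H2B gene, had 3.33, 2.36 and 3.11 FPKM with nintedanib plus 8 Gy, against 2.09, 1.73 and 1.59 FPKM with nintedanib. It had 2.57, 3.20 and 2.73 FPKM with 8 Gy alone, against 3.90, 4.21 and 4.97 FPKM in controls. Mir709 was at 0, 0 and 0.642 FPKM with nintedanib plus 8 Gy, against 3.19, 4.48 and 1.86 FPKM with nintedanib. It passed the filter only through the libraries of nintedanib alone. It was at 0.695, 2.43 and 1.28 FPKM with 8 Gy alone and listed at 0 in the 3 controls. The pseudogene Gm49549 had log2 fold changes of -1.14 with nintedanib and 0.80 without it.

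Twnk, the mitochondrial DNA helicase, had 8.45, 10.4 and 10.5 FPKM with nintedanib plus 8 Gy, against 9.61, 9.0 and 7.76 FPKM with nintedanib, and these groups overlapped. It had 8.36, 9.13 and 8.87 FPKM with 8 Gy alone, against 15.3, 16.2 and 15.6 FPKM in controls. The difference of the effects was 0.91 (limma adjusted p = 0.0707).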
